A study of Mus musculus with 6 samples.

Results

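The 7 anti-apoptotic genes of the BCL2 family, Bcl2, Bcl2l1, Bcl2l2, Mcl1, Bcl2a1a, Bcl2a1b and Bcl2a1d, are described here in mouse B cells with and without TLR9 stimulation. They were found by symbol among the 23420 genes in the files, and all 7 were measured. The genes were chosen by gene family name, with their values in this comparison already known, so their levels and differences are given as a description and without a test. All 7 were also among the 11233 genes tested, those that exceeded 10 reads' worth in 3 or more samples. Bcl2a1a passed this filter only through its values in stimulated cells.

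Splenic B cells, bead purified from BALB/c mice (wild type, 7 to 11 weeks old), were kept for 4 hours at 10 M cells per mL. They received 10 μg/mL of the TLR9 agonist CpG ODN 1826, a synthetic DNA with unmethylated CpG motifs, or were left unstimulated. Each group had 3 samples of 10 M cells, numbered 1 to 3, and the labels give 3 mice in all. The p values rest on the spread between these samples, and the main fit did not pair them by number. By the labels, replicate 3 was male and the others female. The deposited values are quantile-normalized log2 CPM, or log2 counts per M reads. The zero level, for a gene without reads, was set at -5.15. It implies a library of 17.8 M reads on genes and puts 10 reads at -0.76. In some sample 4426 genes lay below the zero level, so it is not a fixed floor. Reads' worth is therefore approximate, most of all for genes with low values.

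Proteins of this family guard the outer membrane of the mitochondrion. BAX and BAK, the effectors, can form pores that release cytochrome c and start the caspase cascade, BH3-only proteins relay death signals to them, and the anti-apoptotic proteins hold both kinds in check through a groove on their surface. Bcl2 encodes BCL-2, Bcl2l1 encodes BCL-XL, Bcl2l2 encodes BCL-W, and Mcl1 encodes MCL-1, a protein with rapid turnover that B cells need at many stages. The mouse Bcl2a1 genes are near-identical copies that encode A1, the counterpart of human BFL-1. Bcl2l1 and the A1 genes are known targets of NF-κB, the transcription factor that acts downstream of TLR9 in B cells.

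The members lie at 5 places in the genome (GRCm38 build, GENCODE M21 annotation). Bcl2 spans 176097 bases of the minus strand at chr1:106538178-106714274, and Bcl2l1 lies on the minus strand at chr2:152780668-152831728. Mcl1 is on the plus strand at chr3:95658788-95663176, and Bcl2l2 is on the plus strand at chr14:54883377-54888234. The A1 genes form a cluster of 484.5 kb on chromosome 9, with Bcl2a1d on the minus strand at chr9:88723285-88731914, Bcl2a1a on the plus strand at chr9:88956900-88962419, and Bcl2a1b on the plus strand at chr9:89199209-89207827.

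What the proteins share can be seen in the coding sequence of the BH1 domain, which lines the groove. A stretch of 60 coding bases is shown for each member, with the 4 codons of the BH1 core in capitals, read from the reference transcripts. It lies in exon 1 of Bcl2 (chr1:106712428-106712487), exon 2 of Bcl2l1 (chr2:152829550-152829609), exon 3 of Bcl2l2 (chr14:54884631-54884690), exon 2 of Mcl1 (chr3:95659826-95659885) and exon 1 of the A1 genes, where it is identical in all 3 (Bcl2a1a, chr9:88957279-88957338).
Bcl2: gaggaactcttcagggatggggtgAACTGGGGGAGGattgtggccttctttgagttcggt
Bcl2l1: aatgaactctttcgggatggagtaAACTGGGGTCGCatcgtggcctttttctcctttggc
Bcl2l2: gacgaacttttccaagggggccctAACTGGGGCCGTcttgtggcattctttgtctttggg
Mcl1: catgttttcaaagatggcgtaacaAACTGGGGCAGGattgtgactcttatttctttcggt
Bcl2a1a, Bcl2a1b and Bcl2a1d: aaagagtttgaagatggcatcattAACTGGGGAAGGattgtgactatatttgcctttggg
Bcl2 and Bcl2l1 had the same base at 43 of the 60 positions, Mcl1 and the A1 genes at 42, Bcl2 and Bcl2l2 at 40, and Bcl2l2 and Mcl1 at 31. Such divergence leaves few shared stretches: no window of 75 bases, the read length, occurred both in Bcl2, Bcl2l1, Bcl2l2 or Mcl1 and in another gene of the files. Gene models without a value in the files shared 5.96% of the windows of Bcl2 (D630008O14Rik) and 12.25% of those of Bcl2l2 (Gm20521).

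The A1 genes are a different case. Their coding sequences are 519 bases long and differed at 12 positions in all, 6 of them within the first 90 bases. This stretch is shown with those positions in capitals, since it holds the densest differences by which a read can be placed. It lies in exon 1, at chr9:88957051-88957140 in Bcl2a1a, chr9:89199360-89199449 in Bcl2a1b and chr9:88731630-88731719 in Bcl2a1d.
Bcl2a1a: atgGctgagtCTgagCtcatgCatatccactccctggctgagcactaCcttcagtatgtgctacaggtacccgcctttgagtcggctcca
Bcl2a1b: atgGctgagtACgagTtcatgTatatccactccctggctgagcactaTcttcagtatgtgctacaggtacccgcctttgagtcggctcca
Bcl2a1d: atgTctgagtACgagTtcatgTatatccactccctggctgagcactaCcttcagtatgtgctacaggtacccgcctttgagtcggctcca
Identity over the coding sequence was 97.88% between Bcl2a1a and Bcl2a1b, 98.65% between Bcl2a1a and Bcl2a1d, and 98.84% between Bcl2a1b and Bcl2a1d. Of the windows of 75 bases, 55.17% in Bcl2a1a, 43.47% in Bcl2a1b and 67.55% in Bcl2a1d occurred in another A1 gene. A further gene model that overlaps Bcl2a1b, Gm29094, has no value in the files, and with it 68.37% of the windows of Bcl2a1b occurred in another annotated gene. How reads that match several genes were counted is not given in the sources used here, so the division of reads among the A1 genes is uncertain. The reference is of C57BL/6J, whereas the cells came from BALB/c mice.

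**Figure D1:**
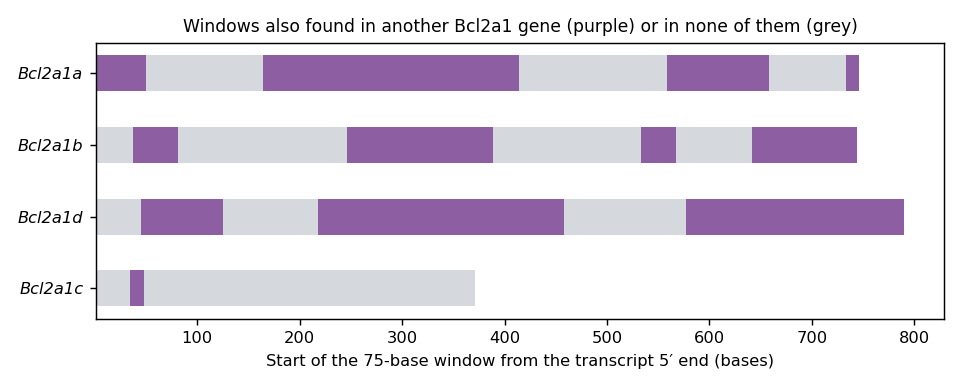
Windows of 75 bases along the Bcl2a1 transcripts, by distance in bases from the transcript start, marked by whether the same window occurs in another Bcl2a1 gene. Shared windows make up 55.17% of Bcl2a1a, 43.47% of Bcl2a1b and 67.55% of Bcl2a1d, and 3.78% of Bcl2a1c.

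After 4 hours of CpG, Bcl2, Bcl2l1 and the 3 A1 genes were higher in stimulated cells. As a description, these 5 of the 7 genes lay past a log2FC of 1 and an FDR of 0.05 in the fit over all genes, Bcl2a1a among them only because stimulated cells brought it through the filter. Over all tested genes 15.8% passed these thresholds upward and 15.3% downward, and no member passed downward. Mcl1 was at nearly the same level in both groups, and Bcl2l2 was lower in stimulated cells by less than the threshold. The median log2FC was 2.52 over the 7 members and 0.0033 over all tested genes.

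Bcl2l1 was at 9.69, 9.46 and 9.53 log2 CPM in stimulated cells and at 5.80, 5.51 and 5.63 in unstimulated cells. The groups were far apart, at 12485.3 to 14643.3 against 807.9 to 987.9 reads' worth. The means were 9.56 ± 0.12 and 5.64 ± 0.15 (SD, n = 3 each), and the log2FC was 3.91 (SE 0.09), or 15.1-fold. The difference was 3.89, 3.95 and 3.90 between samples of the same replicate number, a narrow range for so large a change.

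Bcl2 was at 7.78, 7.78 and 7.71 log2 CPM with CpG and at 5.33, 5.11 and 5.20 without. The stimulated samples were nearly equal, and the groups did not overlap. Group means were 7.76 ± 0.04 and 5.21 ± 0.11, with a log2FC of 2.54 (SE 0.07), or 5.84-fold. Bcl2 thus differed in the same direction as Bcl2l1 and by less, and the log2 ratio of Bcl2l1 to Bcl2, per kb of merged exons, was 2.80 ± 0.12 in stimulated and 1.43 ± 0.04 in unstimulated cells.

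Bcl2a1b values were 9.15, 9.19 and 9.15 in stimulated samples and 6.99, 7.08 and 7.16 in unstimulated samples. Its means of 9.16 ± 0.02 and 7.08 ± 0.09 gave a log2FC of 2.09 (SE 0.06), or 4.25-fold. Bcl2a1d was at 9.22, 9.15 and 9.21 with CpG and at 6.60, 6.60 and 6.82 without. Its means were 9.19 ± 0.04 and 6.67 ± 0.13, and its log2FC was 2.52 (SE 0.07), or 5.73-fold. In both genes the stimulated samples were nearly equal and every one lay above every unstimulated sample.

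Bcl2a1a, of nearly the same length, was far lower than Bcl2a1b and Bcl2a1d. Its values were 3.26, 2.71 and 2.66 in stimulated cells and -1.94, -0.90 and -1.88 in unstimulated cells. In reads' worth these are 169.7, 115.9 and 111.9 against 4.1, 9.0 and 4.3, so that unstimulated cells were close to the limit of 3 reads that a gene without reads allows. The log2FC of 4.45 (SE 0.33) was the largest among the members and the least certain. Between samples of the same number the differences were 5.20, 3.62 and 4.55. On log2(CPM + 1) the log2FC of Bcl2a1a was 2.63, below that of Bcl2l1 at 3.89. Another copy, Bcl2a1c, is a single-exon gene 25.1 Mb away that shared 3.78% of its windows with the others. It was at 0.90 ± 0.34 log2 CPM with CpG and -2.05 ± 0.72 without, or 27.4 to 43.0 against 2.4 to 7.1 reads' worth, and it too passed the filter only through stimulated samples. Of the other BCL2-like genes, 3 of 6 were tested, and Bcl2l13, another mitochondrial member, was at 6.46 ± 0.06 with CpG and 6.46 ± 0.03 without.

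Mcl1 differed least of the members. It was at 9.31, 9.62 and 9.51 log2 CPM in stimulated cells and at 9.26, 9.43 and 9.55 in unstimulated cells, and the groups overlapped. Means were 9.48 ± 0.16 and 9.41 ± 0.14, and the log2FC of 0.07 (SE 0.10) placed Mcl1 above 52.76% of tested genes, near the middle of the transcriptome. Between samples of the same number the difference was 0.05, 0.20 and -0.04.

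Bcl2l2 was the only member lower in every stimulated sample, as were 38.6% of tested genes. Values were 2.45, 2.29 and 1.95 with CpG and 3.25, 3.09 and 3.12 without, which is 68.0 to 96.5 against 151.0 to 168.0 reads' worth. The means of 2.23 ± 0.26 and 3.15 ± 0.08 gave a log2FC of -0.92 (SE 0.15). Without stimulated replicate 1, the highest of its group, the log2FC was -1.03 and passed the threshold. An overlapping gene model, Gm20521, shares 12.25% of the windows of Bcl2l2 and has no value of its own in the files.

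**Figure D2:**
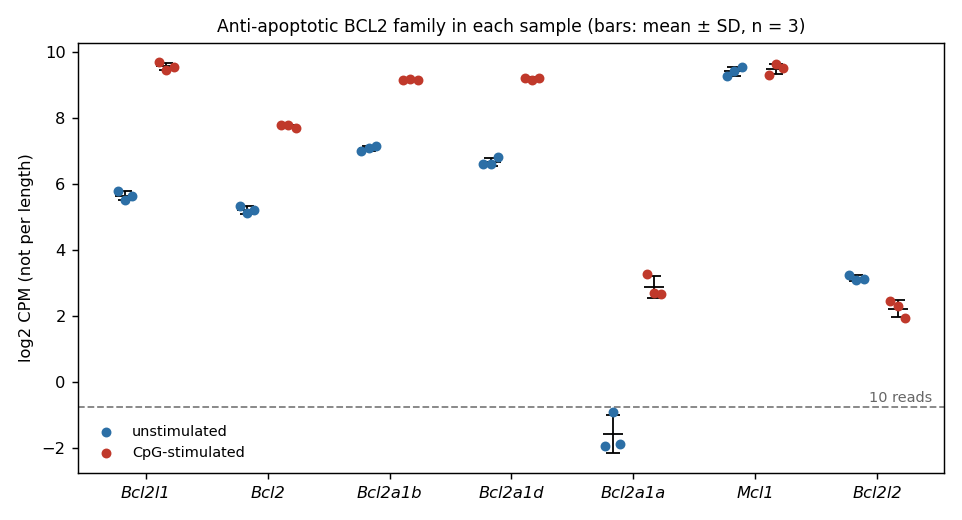
Deposited log2 CPM of the 7 members in each of 3 CpG-stimulated and 3 unstimulated samples, with points for samples, bars for the group mean ± SD and a dashed line at 10 reads' worth. Bcl2, Bcl2l1 and the 3 Bcl2a1 genes were higher in every stimulated sample, Bcl2l2 was lower in every stimulated sample, and Mcl1 overlapped.

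In all, 5 members were higher in every stimulated than in every unstimulated sample, a pattern that held for 39.1% of tested genes, and 1 was lower. The place of the members among all tested genes differed widely. Bcl2a1a had the 22nd highest log2FC of 11233 and Bcl2l1 the 42nd, while Bcl2, Bcl2a1d and Bcl2a1b ranked 189, 197 and 332. Since Bcl2a1a passed the filter through the group where it was high, its rank is set partly by the filter.

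**Figure D3:**
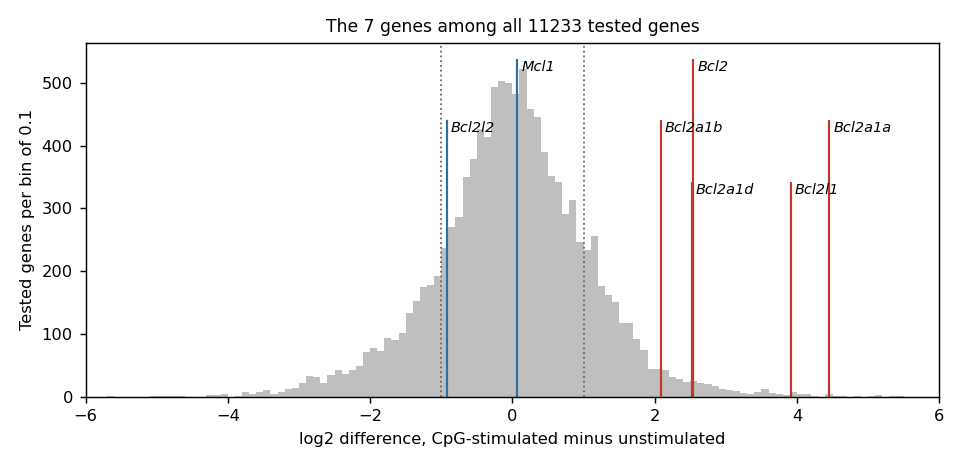
Histogram of the log2FC (CpG-stimulated minus unstimulated) of 11233 tested genes in gray, with a labeled vertical line at each of the 7 members. Bcl2l1 at 3.91 and Bcl2a1a at 4.45 lie far to the right, Mcl1 at 0.07 near the center and Bcl2l2 at -0.92 to the left of it.

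Levels of different genes can be compared only per length, so CPM was divided by kb of merged exons. In unstimulated cells the order was Mcl1 at 200.04 ± 19.7, Bcl2a1b at 165.4 ± 9.75, Bcl2a1d at 118.4 ± 10.9, Bcl2l1 at 10.9 ± 1.11, Bcl2 at 4.05 ± 0.31, Bcl2l2 at 1.99 ± 0.11 and Bcl2a1a at 0.40 ± 0.19 CPM per kb. In stimulated cells it was Bcl2a1b at 701.7 ± 10.2, Bcl2a1d at 676.8 ± 18.1, Mcl1 at 210.2 ± 22.6, Bcl2l1 at 164.7 ± 13.5, Bcl2 at 23.6 ± 0.65, Bcl2a1a at 9.10 ± 2.22 and Bcl2l2 at 1.06 ± 0.18 CPM per kb. The ranges of neighbours in each order did not overlap. By this measure Mcl1 was the highest without CpG and below Bcl2a1b and Bcl2a1d with CpG, but the order depends on how length is counted.

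Windows on which a single read can be placed uniquely give another order, chosen as a measure after seeing the data. Per 100 windows of 75 bases found in no other gene of the files, Bcl2a1d was at 228.1 ± 6.09 CPM and Bcl2a1b at 136.5 ± 1.98 in stimulated cells, and at 39.9 ± 3.66 and 32.2 ± 1.90 in unstimulated cells. Mcl1 was at 21.5 ± 2.31 with CpG and 20.4 ± 2.01 without, and Bcl2l1 at 30.3 ± 2.49 and 2.01 ± 0.20. Bcl2a1d was then above Bcl2a1b in both groups, and both were above Mcl1 also without CpG. Bcl2l1 was above Mcl1 with CpG. Each is the reverse of the order per kb. The order of Bcl2l1 and Mcl1 does not turn on unique placement, since neither shares a window of 75 bases with another gene. It turns on length: the windows lie on the longest coding transcript, which has 2568 bases in Bcl2l1, against 4586 in merged exons. Bcl2a1a stayed far below both, at 2.23 ± 0.54 and 0.098 ± 0.046. For the A1 genes, the first measure fits a count of all reads and the second a count of uniquely placed single reads only. The reads were paired, and a pair can be placed by either of its reads, so the levels per window depend on the window length. In Bcl2a1d, 256 windows of 75 bases and 498 of 150 bases were found in no other gene of the files. In Bcl2a1b these were 420 and 573.

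The make-up of the family also differed between the groups, by an amount that depends on the same choice. The A1 genes held 77.6% ± 0.515 of the summed level per kb in stimulated and 56.7% ± 0.678 in unstimulated cells. The share of Mcl1 was 11.8% ± 1.27 with CpG and 39.9% ± 1.17 without, although its own level was nearly the same, and the share of Bcl2l1 was 9.22% ± 0.756 and 2.20% ± 0.345. Per uniquely placed window, the A1 genes held 87.0% with CpG and 75.7% without, and Mcl1 5.10% and 21.4%. Bcl2 made up 1.32% ± 0.037 and 0.812% ± 0.109, and Bcl2l2 0.059% ± 0.010 and 0.399% ± 0.049. Transcript shares do not give protein shares, and MCL-1 in particular is short-lived.

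**Figure D4:**
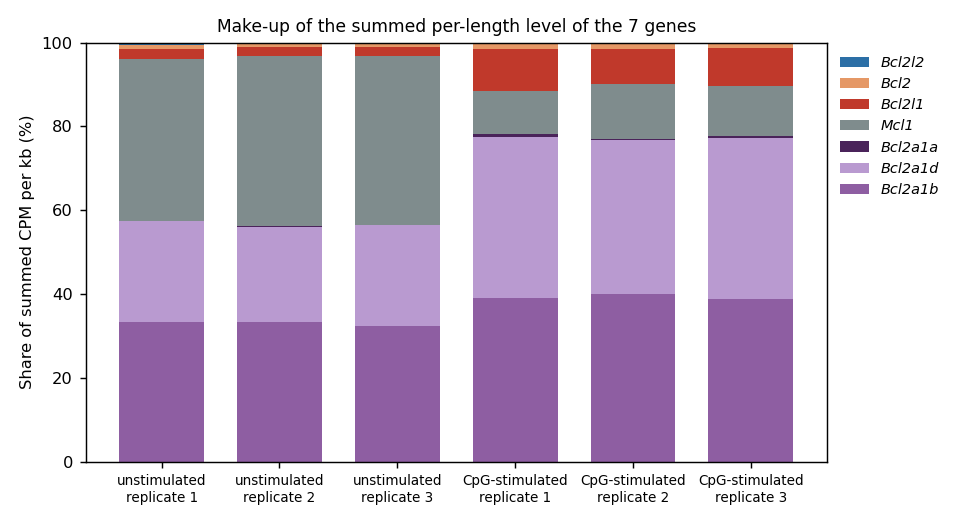
Share of each member, in percent, of the summed CPM per kb of the 7 genes in each sample. The Bcl2a1 genes together held 77.6% in stimulated and 56.7% in unstimulated cells, and Mcl1 held 11.8% and 39.9%.

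The summed level of the 7 genes was 1787.3, 1786.2 and 1787.8 CPM per kb in stimulated cells and 466.8, 494.5 and 542.4 in unstimulated cells, or 3.57-fold higher with CpG. Without the A1 genes it was 399.6 ± 9.07 against 217.0 ± 18.7, or 1.84-fold. Against Mcl1, which barely differed, the log2 ratio of Bcl2l1 was -0.35 ± 0.28 with CpG and -4.19 ± 0.26 without, so that Bcl2l1 was nearer to Mcl1 in stimulated cells. The sign with CpG depends on the length, since the ratio was 0.49 with CpG and -3.36 without per length of the longest coding transcript. Quantile normalization sets the total of each sample, so these levels are relative to all mRNA and do not show the amount per cell.

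Among the opponents of these genes, 2 of 3 effector genes were tested. Bax, which encodes an effector, rose by a log2FC of 0.79 (SE 0.06, adjusted p = 1.68e-06), from 6.59 ± 0.07 to 7.38 ± 0.06, and Bak1, which encodes the other, fell by 0.27 (SE 0.07, adjusted p = 0.00669). Neither reached a log2FC of 1, and Bok was too low to test. Their summed level was 127.1 ± 4.84 CPM per kb with CpG and 86.7 ± 1.80 without. The log2 ratio of the 7 anti-apoptotic genes to this sum was 3.81 ± 0.06 and 2.53 ± 0.12, and that of Bcl2l1 alone was 0.37 ± 0.17 and -2.99 ± 0.17.

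Of the BH3-only genes, 8 of 10 were tested, and 1 rose and 3 fell past the thresholds. Over all tested genes 15.8% rose and 15.3% fell past them. The median log2FC of the 8 BH3-only genes was -0.83, beside 0.0033 over all tested genes. Bid, which links death receptors to mitochondria, rose by 1.27 (SE 0.08, adjusted p = 2.44e-07). Bmf fell by 1.83 (SE 0.11, adjusted p = 3.16e-07), Bad by 1.26 (SE 0.19, adjusted p = 0.000187) and Bnip3l, which acts in mitophagy, by 1.10 (SE 0.16, adjusted p = 0.000141). Its relative Bnip3 fell by 0.85 (SE 0.14, adjusted p = 0.000365). Bcl2l11, which encodes BIM, a main trigger of B cell death, was at 8.25 ± 0.05 with CpG and 8.42 ± 0.04 without, a log2FC of -0.17 (SE 0.06, adjusted p = 0.0249). Bbc3, which encodes PUMA, rose by 0.70 (SE 0.19, adjusted p = 0.00666). Pmaip1, which encodes NOXA, a partner of MCL-1, fell by 0.81 (SE 0.27, adjusted p = 0.0190) with overlap between the groups.

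Downstream of the mitochondria, all 10 genes of the caspases and apoptosome list were tested, and 2 rose and 5 fell past the thresholds. The shares over all tested genes were 15.8% and 15.3%. Cycs, which encodes cytochrome c, rose by 1.36 (adjusted p = 1.64e-07), and Diablo, an antagonist of inhibitor of apoptosis proteins, rose by 1.17 (adjusted p = 7.75e-07). Htra2, a mitochondrial protease, rose by 0.53 (adjusted p = 0.000448). Casp9, the initiator caspase of the apoptosome, fell by 2.09 (adjusted p = 2.10e-07), and Casp6, another caspase gene, fell by 1.90 (adjusted p = 1.93e-06) to 1.77 ± 0.27 log2 CPM. Apaf1, the scaffold of the apoptosome, fell by 1.01 (adjusted p = 1.35e-05). Of 5 inhibitor of apoptosis genes, 1 rose and none fell past the thresholds, beside the same shares over all tested genes. Birc5 rose by 1.31 (adjusted p = 0.00042) at a low level, Birc3 rose by 0.57 (adjusted p = 1.57e-05) to 9.46 ± 0.07, and Xiap fell by 0.50 (adjusted p = 3.53e-05). Birc6 fell by 0.65 (adjusted p = 5.75e-05), while Birc2 overlapped between the groups, at a log2FC of 0.09 (adjusted p = 0.311).

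Because Mcl1 is controlled by protein turnover, genes of that process were listed as well, and 4 of 5 were tested. Btrc, which encodes a ubiquitin ligase adaptor, fell by 1.13 (SE 0.11, adjusted p = 4.99e-06). The ligase gene Huwe1 fell by 0.23 (adjusted p = 0.0335), the deubiquitinase gene Usp9x fell by 0.62 (adjusted p = 2.36e-05), and the ligase adaptor Fbxw7 rose by 0.40 (adjusted p = 0.00468). In all 7 lists together, 37 of 44 genes were tested, and 7 were higher and 10 lower past the thresholds. Over all tested genes the shares were 15.8% and 15.3%. Bcl2a1c was among the 7 only through its stimulated samples. The lists were written with earlier results known, so these counts describe them only.

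**Figure D5:**
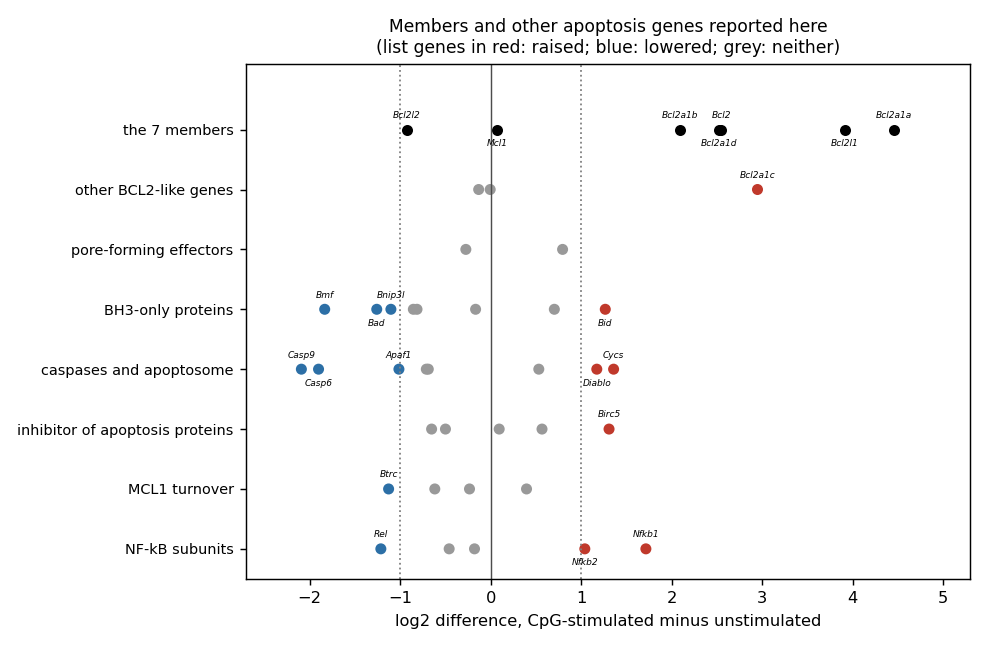
The log2FC (CpG-stimulated minus unstimulated) of the members and of the genes reported here from 7 other lists of apoptosis and NF-κB genes, 1 point per gene, in red or blue for list genes raised or lowered past the thresholds. The members reach 4.45, while the genes shown from the caspases and apoptosome list run from -2.09 to 1.36.

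Of 5 NF-κB subunit genes, 2 rose and 1 fell past the thresholds, beside 15.8% and 15.3% of all tested genes. Nfkb1 rose from 9.56 ± 0.11 to 11.27 ± 0.21 (log2FC 1.71, adjusted p = 3.05e-07) and Nfkb2 by 1.04 (adjusted p = 2.55e-06), whereas Rel, which encodes c-Rel, fell by 1.21 (adjusted p = 2.67e-07). Rela fell by 0.18 (adjusted p = 0.0274) and Relb fell by 0.46 (adjusted p = 0.000164). RefSeq sequences gave 9 promoters for the 7 members, and the 250 bases before each start (GRCm38.p6) were searched on both strands for the κB consensus and for the AP-1 motif TGANTCA. No match of either motif overlapped a match of the other. The κB consensus was found in 1 of 9, an alternative promoter of Bcl2l1, and in 7.25% of 32851 promoters. The stretch shown around this match overlaps an annotated exon of Bcl2l1. AP-1 was found in 3 of 9, the A1 genes, and in 6.75% of all promoters. Each stretch with a match has the match in capitals, and it reads TGAATCA in all 3 A1 genes. Whether this match has a part in their higher level with CpG was not tested.
Bcl2a1a (chr9:88956774-88956833, plus strand): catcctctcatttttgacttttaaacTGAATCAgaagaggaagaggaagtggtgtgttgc
Bcl2a1b (chr9:89199083-89199142, plus strand): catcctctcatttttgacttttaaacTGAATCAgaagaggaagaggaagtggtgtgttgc
Bcl2a1d (chr9:88731931-88731990, minus strand): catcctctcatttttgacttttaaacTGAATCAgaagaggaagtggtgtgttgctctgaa
Bcl2l1 (chr2:152830938-152830967, minus strand): tgtttgtgGGGGGTCTCCagcatacgcctc
The A1 promoters are copies of one another, so their matches are not independent. A match describes the letters and not a bound site.

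The genes whose centred values over the 6 samples lay nearest to those of each member were also found, with the root mean square distance in log2 units as the measure. For Bcl2 these were Ece2 (0.0586), Psat1 (0.0978) and Wnt10b (0.0979), and for Bcl2l1 they were Slamf1 (0.0974), Plxnd1 (0.117) and 9330179D12Rik (0.177). Bcl2a1d was nearest to Dennd3 (0.0609), Lipt2 (0.0649) and Phf11b (0.0744), and Bcl2a1b to Epb4.1l5 (0.0548), Oasl1 (0.0864) and Wrb (0.0914). Bcl2a1a had no close match, with Zfp811 (0.187), 6030419C18Rik (0.282) and Ifnlr1 (0.342). Mcl1 was nearest to Mtif3 (0.05), Cd83 (0.0515) and Mff (0.0516), and Bcl2l2 to Dgcr6 (0.0663), Eef2k (0.0985) and Pnkd (0.0986). None of these genes is a member of the family.

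The samples had the profile of B cells. The summed level of 6 B cell markers was 11.1 to 11.3 log2 CPM with CpG and 11.76 to 11.99 without, and no T cell or NK cell marker had a mean above 10 reads over the 6 samples. Myeloid markers summed to 3.30 to 3.95 with CpG and 2.80 to 3.71 without, and 3 of 7 were above 10 reads. Markers of plasmacytoid dendritic cells summed to 4.61 to 4.70 and 5.25 to 5.38, with 2 of 3 above 10 reads. Nearly all of this sum was Pacsin1, at 4.60 ± 0.04 with CpG and 5.27 ± 0.08 without. Ccr9 was at -0.16 ± 0.39 and 0.78 ± 0.26, and Siglech at -2.66 ± 0.52 and -3.63 ± 0.69. Klrb1c, an NK cell marker, was higher with CpG, at -0.13 ± 0.62 against -4.65 ± 0.33, and the part of these markers in the results was not tested. In bulk samples, fewer cells of a type and less RNA per cell cannot be told apart.

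Erythroid RNA stood out in replicate 2 of each group, at 12.3 and 11.9 log2 CPM against 8.63 to 9.29 in the other samples, with all 5 markers above 10 reads. Bcl2l1, which red cell precursors also express, was lowest in replicate 2 of both groups, and its log2FC between those samples was 3.95, beside 3.89 and 3.90 for the others. Without replicate 2 of each group, a choice made after seeing the data, 5 members were again higher past the thresholds and none lower. The log2FC of Bcl2l1 was then 3.90. Erythroid markers summed to 8.63 log2 CPM or more in every sample, and the part of erythroid RNA in the results was not tested.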

How the data were processed

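RNA-seq values of 3 CpG-stimulated and 3 unstimulated samples were used. Per the labels and the study's methods, the authors trimmed paired reads with Trim Galore 0.6.5, aligned them to mm10 with STAR 2.6.1a, counted them per gene with featureCounts (Subread 2.0.1), applied quantile normalization and voom, and deposited log2 CPM. The strand setting and the treatment of reads that match several genes are not given in the sources used here. Depth is not in the values. Taken as common to all samples, the zero level implies a library of 17.8 M reads, although 4426 genes lay below it in some sample. Reads' worth is therefore approximate, and read limits cover counting error only.

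The members and lists were chosen with earlier results of these data known. A linear model with a variance trend was fitted with limma 3.58.1 (R 4.3.3) to the 11233 genes that exceeded 10 reads' worth in 3 or more samples. The model had no term for the replicate number. Adjusted p values in the text are from this fit, by the Benjamini-Hochberg method. Thresholds were a log2FC of 1 and an FDR of 0.05. The fit was tested on simulated data. For levels per length, the 0.5 reads of voom were subtracted from CPM. Read windows, coding stretches and gene positions were taken from GENCODE M21, and promoters from RefSeq. All 7 members are named, in other lists genes past the thresholds and the 3 highest and 3 lowest log2FC of each list (mean log2 CPM of 3 or more), and for each member the 3 genes nearest in pattern. Some list genes that were tested and counted are not reported here. Columns not used numbered 0.

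Replicate numbers are taken from the labels. Deviations from the group means correlated at 0.435, 0.224 and 0.300 between samples of the same number and at -0.281 to 0.028 between others. The numbers were therefore taken to pair the samples in the alternative with a block, while the main fit left this pairing out. The deposited values also carry a shift by number: 2683 to 2950 low genes held equal values in samples of the same number, against 486 to 580 in others. The part of this shift in the correlations was not tested. Alternatives covered filters, scale, variance trend, centring, the block, a test against a log2FC of 1, gene length, window length, the measure of likeness and each sample left out.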

Additional observations from a re-analysis of the deposited data

How the results depend on the processing

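With the replicate number as a block, 1784 genes were raised and 1728 lowered, and none of 44 calls among members and list genes changed. Tested against a log2FC of 1 (limma treat), 914 genes were raised and 968 lowered, and among list genes 4 and 5. With samples left out, each in turn or replicate 2 of both groups, raised genes numbered 1650 to 1851 and lowered genes 1667 to 1807, list genes 6 to 7 and 8 to 10, and members 5 raised and 0 to 1 lowered, the 1 being Bcl2l2 without CpG-stimulated replicate 1. The log2FC ran from 2.48 to 2.602 for Bcl2, 3.84 to 3.99 for Bcl2l1, -1.03 to -0.78 for Bcl2l2, -0.004 to 0.16 for Mcl1, 4.26 to 4.87 for Bcl2a1a, 2.04 to 2.13 for Bcl2a1b and 2.48 to 2.59 for Bcl2a1d. On log2(CPM + 1), Bcl2a1a was at 2.63, since the added 1 exceeds its unstimulated level, and lay below Bcl2l1 at 3.89.

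Per length of the longest coding transcript, stimulated and unstimulated shares were 1.56% and 1.01% for Bcl2, 15.3% and 3.85% for Bcl2l1, and 36.5% and 32.4% for Bcl2a1b, with Bcl2l2 at 0.458% unstimulated and Bcl2a1d at 35.2% stimulated. Mcl1 was then at 10.9% with CpG, below Bcl2l1. Per window found in no other gene of the files, an alternative added after seeing the data, stimulated and unstimulated shares were 0.72% and 0.549% for Bcl2, 0.030% and 0.25% for Bcl2l2, 5.10% and 21.4% for Mcl1, 32.4% and 33.7% for Bcl2a1b, and 54.1% and 41.8% for Bcl2a1d, with Bcl2l1 at 7.18% stimulated, and the summed level was 4.42-fold higher with CpG. Windows of 50 and 150 bases shared with another A1 gene were 68.96% and 28.21% in Bcl2a1a, 57.55% and 14.22% in Bcl2a1b, and 79.48% and 30.25% in Bcl2a1d. The log2 ratio of Bcl2a1b to Bcl2a1d was 0.05 with CpG and 0.48 without per kb, and -0.74 and -0.31 per such window. By Pearson correlation, 1 of 3 nearest genes was shared for Bcl2l2 and 0 of 3 for the other members. Depth limits Bcl2a1a and Bcl2a1c in unstimulated cells, at 9.0 reads' worth or fewer.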
